A study of Blastobotrys raffinosifermentans with 8 samples.

Results

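The later course of *Blastobotrys raffinosifermentans* LS3 on protocatechuic acid was followed on 3 of the 8 arrays of the study, which hold cells taken after 30 min, 2 h and 5 h. These arrays were chosen by their titles, PA_30min, PA_2h and PA_5h. They were read as 2 steps, 2 h minus 30 min and 5 h minus 2 h. The medium of these cultures (PA) held 1% glucose and 0.5% protocatechuic acid. Cultures on 1% glucose alone (Glc), taken at the same times, were set beside them. LS3 is a wild-type yeast strain, and both media had nitrate as the nitrogen source. Before the shift to these media, all cells had grown overnight on glucose and nitrate. A further pair of arrays at 15 min was used for the fit over both media and to choose genes from outside the later course.

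Protocatechuic acid is a hydroxylated benzoic acid that microorganisms meet in decaying plant material. In this yeast, tannic acid is cut by tannases to gallic acid, and decarboxylation gives pyrogallol from gallic acid and catechol from protocatechuic acid. A dioxygenase then opens the aromatic ring, and the open chain is broken down to compounds of central metabolism. Genes for such routes are often switched on by their substrates, while glucose is a carbon source that yeasts use by preference.

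Each medium and time had 1 array, so the spread between cultures is unknown and the steps with protocatechuic acid alone have no test. Time also goes with the position on the slide, and the media lay in different rows, so time and position cannot be told apart within the PA cultures. A level is the median over the spots of a gene of the normalized log2 signal, and a step is the later level minus the earlier one. A level is an average over the cells of a culture, and fewer cells with a transcript cannot be told apart from less transcript per cell. Of the 6160 gene identifiers on the array, 6036 were counted, each with a probe that stood well above background on 2 or more of the 8 arrays. The share of yeast spots that stood well above background was 61.7%, 68.7% and 59.0% with PA after 30 min, 2 h and 5 h, and 58.9%, 64.7% and 70.2% with Glc. For probes printed on 2 spots that were both above background, the step differed between the duplicates with an SD of 0.203 (2 h minus 30 min, 2818 probes) and 0.196 (5 h minus 2 h, 2775 probes) with PA. This spread is technical and lies within the arrays. The files do not pair identifiers with gene names, so roles are given only for genes that the paper annotates.

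Between 30 min and 2 h with PA, 266 genes (4.41% of the counted genes) were higher by at least 1 on the log2 scale and 215 (3.56%) were lower. Between 2 h and 5 h, 144 genes (2.39%) were higher and 214 (3.55%) were lower. More genes thus passed this size at the first step than at the second, 481 (7.97%) against 358 (5.93%), and the higher genes made up 55.3% of them at the first step and 40.2% at the second. With Glc the counts were 178 higher (2.95%) and 183 lower (3.03%) at the first step, and 213 higher (3.53%) and 153 lower (2.53%) at the second. A step of at least 2 was found with PA for 32 higher and 31 lower genes at the first step, and for 12 higher and 24 lower genes at the second. The Glc cultures had 21 higher and 31 lower genes of this size at the first step, and 63 higher and 19 lower at the second.

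The split between higher and lower genes depends on how the arrays are scaled. The E1A spike-in probes of the array, of which 7 of 10 were above background on all arrays, moved by a median of -0.34 with PA at the first step and by 0.26 at the second. With Glc they moved by -0.25 and -0.47. When the median of the spike-ins was set to 0, the median of all genes shifted to 0.32 at the first step with PA and to -0.23 at the second. The higher genes were then 81.6% of those past 1 at the first step (516 higher, 116 lower) and 14.9% at the second (66 higher, 376 lower). With 1 median per array in place of quantile normalization they were 65.6% and 35.6%. All levels and steps given here are relative to the quantile-normalized arrays.

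**Figure D1:**
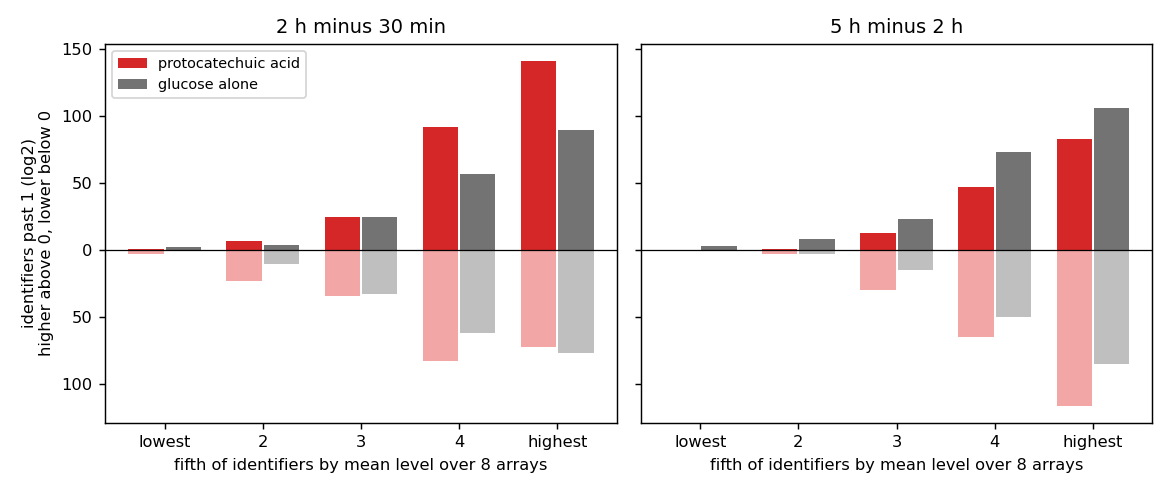
Number of genes past a log2 difference of 1 in each of 5 groups of equal size by mean level (x axis, lowest to highest), for both steps, with protocatechuic acid (red) left of glucose alone (grey). Bars above 0 count higher genes and bars below 0 count lower genes; with protocatechuic acid, the group with the highest levels holds 141 of the 266 genes that were higher at 2 h than at 30 min.

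Few genes with low levels were among these counts. Of the 1207 genes in the highest of 5 groups by mean level, 141 were higher and 72 lower at the first step with PA, and 83 were higher and 116 lower at the second. In the group with the lowest levels, of 1208 genes, the counts were 1 higher and 3 lower, then 0 and 0. The background correction adds a constant to all signals, which makes steps of dim genes smaller. Without this constant 413 genes were higher and 343 lower at the first step, and 243 were higher and 327 lower at the second.

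Over the whole course with PA, 906 of the 6036 genes (15.0%) had levels that spanned at least 1. Of these, 388 (42.8%) were highest at 30 min, while 2 h and 5 h each had the highest level of 259 genes (28.6%). The lowest level was at 30 min for 378 genes, at 2 h for 136 and at 5 h for 392. With Glc 852 genes (14.1%) spanned at least 1, and 344 were highest at 30 min, 170 at 2 h and 338 at 5 h. A peak at 2 h was thus found for 259 genes with PA and for 170 with Glc, and a peak at 5 h for 259 and for 338. These differences between the media have no replicate and were not tested.

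The gene with the largest increase at the first step was ARAD1A06820g. Its levels were 6.06, 10.33 and 7.75 at 30 min, 2 h and 5 h with PA, and 6.05, 8.99 and 7.07 with Glc. It was 4.27 higher at 2 h than at 30 min with PA (SD over 10 spots 0.66), which is 19.3-fold, and all 10 spots were higher. It was then lower by a step of -2.58. The peak at 2 h was present in both media, and the 2 media started from almost the same level.

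The gene with the largest decrease at the first step was ARAD1A00286g, with 8.83, 5.04 and 5.91 with PA against 6.75, 4.96 and 6.67 with Glc. Its step was -3.79 with PA (SD over 12 spots 0.51) and all 12 spots were lower. Its level at 30 min was higher with PA than with Glc. At 2 h only 2 of 12 spots with PA and 1 of 12 with Glc were above background, so their close levels say little. Without the constant that the background correction adds, its step with PA was -4.71. ARAD1A00286g is the first of 3 neighbouring identifiers that were all lower by at least 1 at this step in both media, near the start of chromosome A by number. The other two were chosen after their values were seen. ARAD1A00308g had 9.37, 6.16 and 8.21 with PA and 9.18, 6.62 and 8.80 with Glc. ARAD1A00330g had 9.91, 7.55 and 6.99 with PA and 6.91, 5.21 and 6.95 with Glc. At 5 h the levels of the first 2 were above those at 2 h in both media, while ARAD1A00330g was higher with Glc and lower with PA.

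At the second step the largest increase with PA was that of ARAD1B09900g. Its levels were 8.29, 8.34 and 11.27 with PA, and 9.06, 7.24 and 11.18 with Glc. The step was 2.92 with PA (SD over 11 spots 0.59), or 7.59-fold, and 3.94 with Glc. The levels at 5 h were alike in the media, and those at 2 h were not. The largest decrease was that of ARAD1C23650g, with 10.31, 12.40 and 8.79 with PA and 10.96, 12.14 and 9.68 with Glc. Its step of -3.61 with PA (SD over 9 spots 0.19) makes a 12.2-fold lower level at 5 h than at 2 h, and all 9 spots were lower. Both media had the highest level of this gene at 2 h.

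**Figure D2:**
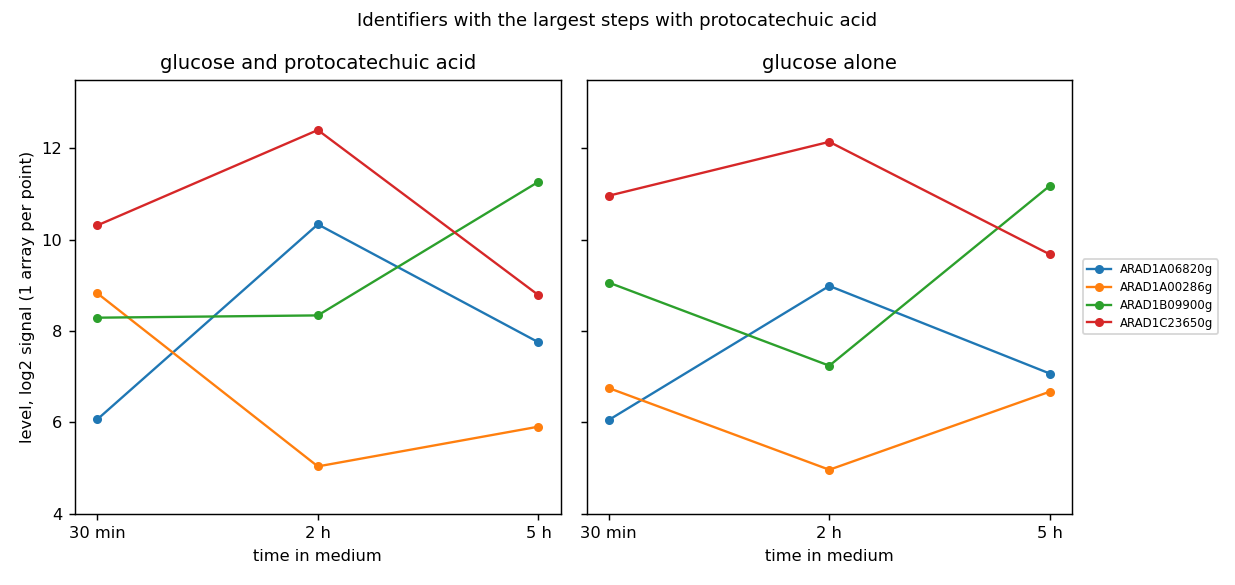
Levels (log2 signal, y axis) of the genes with the largest increase and the largest decrease at each step, at 30 min, 2 h and 5 h with protocatechuic acid (left) and with glucose alone (right), 1 array per point. ARAD1A06820g and ARAD1C23650g had their highest level at 2 h in both media.

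Part of the course was shared by both media, less of it at the second step than at the first by the correlation over genes. Over 6036 genes, the first step with PA and the first step with Glc had a Pearson's r of 0.729 and a Spearman's rho of 0.660, and for the second step these values were 0.512 and 0.356. Genes are not independent replicates, and the steps of the media come from different arrays of 1 slide. Of the 266 genes that were higher at the first step with PA, 112 were higher by at least 1 with Glc too, 42.1% of the PA genes and 62.9% of the Glc genes. Of the 215 lower genes, 109 were lower with Glc (50.7% and 59.6%). At the second step 77 genes were higher in both media (53.5% of the PA genes and 36.2% of the Glc genes) and 71 were lower (33.2% and 46.4%).

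Among the genes with a step of at least 2 with PA, 25 of 32 higher and 20 of 31 lower genes also passed 1 in the same direction with Glc at the first step. At the second step, 12 of 12 higher and 15 of 24 lower genes did. The median steps of the 32 genes were 2.33 with PA and 1.49 with Glc, and those of the 31 genes were -2.41 and -1.59. For the 12 genes that were higher at 5 h they were 2.40 with PA and 3.0 with Glc. For the 24 genes that were lower at 5 h they were -2.46 and -1.20. Since these genes were chosen by their step with PA, a larger size with PA is no result. For the 12 genes the median was larger with Glc.

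**Figure D3:**
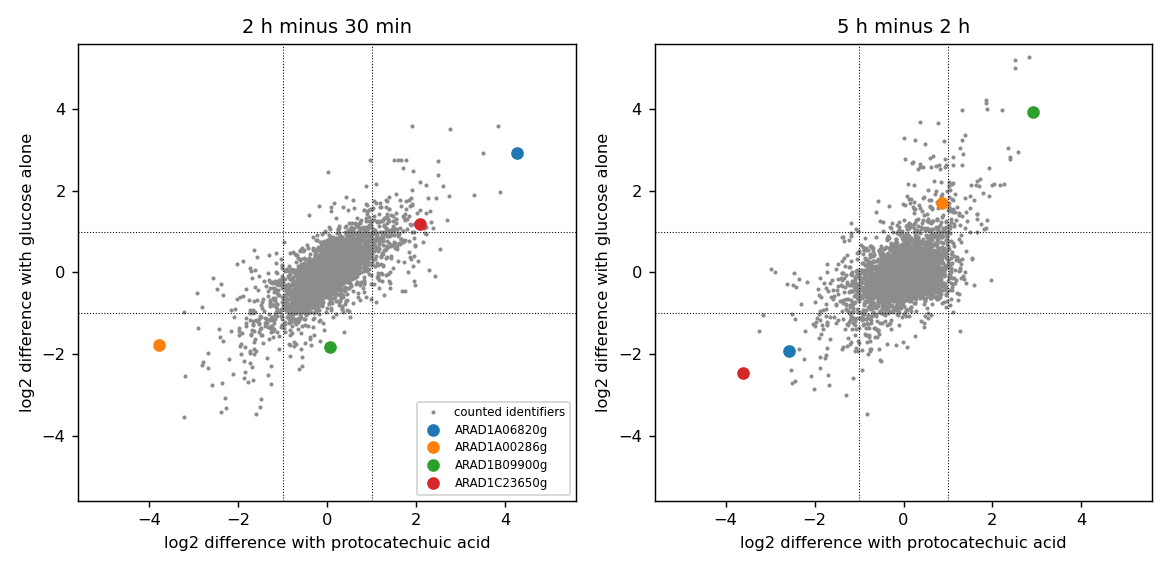
Step of each of the 6036 counted genes with protocatechuic acid (x axis, log2 difference) against its step with glucose alone (y axis, log2 difference), 2 h minus 30 min on the left and 5 h minus 2 h on the right, with dotted lines at 1 and -1 and the genes of the largest steps in colour. The points lie along a rising diagonal at the first step (r = 0.729) and spread more widely at the second (r = 0.512).

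The change that both media share is the only one that can be tested. With 1 array per medium and time, the spread in this test is what medium and time leave unexplained. It is not a spread between cultures. A gene whose course differs between the media has a larger spread and is harder to call. A limma fit with medium and time over the 8 arrays, with 3 residual degrees of freedom, called 3 of 6036 genes (0.0497%) after Bonferroni adjustment for 2 h minus 30 min and 1 gene (0.0166%) for 5 h minus 2 h. After Benjamini-Hochberg adjustment 169 genes (2.8%) were called at the first step, 88 higher and 81 lower, and 72 (1.19%) at the second, 40 higher and 32 lower. Of the 88 genes that rose at the first step, 76 were at least 1 higher with PA and 64 with Glc, with median steps of 1.39 and 1.28. Of the 81 genes that fell, 62 were at least 1 lower with PA and 68 with Glc, with medians of -1.40 and -1.36. With the same adjustment, 35 of the 40 genes that rose at the second step and 30 of the 32 that fell passed 1 with PA. With Glc 39 and 30 did. The fit that chose these genes used the arrays of both media, so large steps among them are no separate result. These calls depend on which arrays the fit holds. Leaving out 1 array also changes the spread used for both steps, so a loss of calls does not point at that array. In each fit without 1 of the arrays at 30 min, 2 h or 5 h, of either medium, 0 genes passed either adjustment at either step. Without 1 array at 15 min, 1 and 0 genes passed the Bonferroni adjustment and 240 and 15 the Benjamini-Hochberg adjustment.

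The genes called after Bonferroni adjustment in the limma fit were named after their values were seen. ARAD1B05214g had 7.04, 10.88 and 9.95 with PA and 7.65, 11.24 and 10.07 with Glc (adjusted p = 0.01 for the first step). ARAD1A08118g had 9.75, 11.84 and 11.08 with PA and 9.78, 12.01 and 11.33 with Glc (adjusted p = 0.0405). Both were low at 30 min and stayed above that level at 5 h. ARAD1D06446g had 11.42, 8.83 and 8.44 with PA and 12.07, 9.30 and 8.82 with Glc (adjusted p = 0.0165), and was high at 30 min only. At the second step ARAD1C11704g rose in both media (adjusted p = 0.0305), with 8.00, 8.99 and 11.16 with PA and 8.32, 9.46 and 11.60 with Glc. Of the genes with the largest steps, ARAD1A06820g rose by a mean of 3.60 over both media at the first step (standard error 0.31, Benjamini-Hochberg adjusted p = 0.0163 from limma) and fell by 2.25 at the second (standard error 0.31, adjusted p = 0.0498). ARAD1B09900g rose by 3.43 (standard error 0.42) and ARAD1C23650g fell by 3.04 (standard error 0.36) at the second step, each with an adjusted p of 0.0498. For ARAD1A00286g the adjusted p at the first step was 0.0959.

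A smaller number of genes moved with PA and stayed within 0.5 with Glc. At the first step 51 of the 266 higher genes (19.2%) and 56 of the 215 lower genes (26.0%) were of this kind, and at the second step 46 of 144 (31.9%) and 85 of 214 (39.7%). Small steps with Glc were common among all counted genes. Their 5th and 95th percentiles with Glc were -0.8 and 0.81 at the first step, and -0.7 and 0.79 at the second. The share of all counted genes within 0.5 with Glc was not counted, so the shares given above have no baseline. Whether these genes form a class of their own was not tested, and "with PA alone" below refers to these cutoffs only. The choice of these genes fixes that PA minus Glc rose in the higher genes and fell in the lower ones. It does not fix whether the media came closer or moved apart. For the 51 genes, median levels were 5.99, 7.44 and 7.25 with PA at 30 min, 2 h and 5 h, and 6.46, 6.66 and 7.0 with Glc. At 2 h 26 of them were at least 1 higher with PA than with Glc, and 1 was at 30 min.

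The genes that were lower with PA alone went the other way. For the 56 genes that were lower at 2 h, median levels were 7.34, 6.05 and 6.08 with PA and 5.75, 5.73 and 6.04 with Glc. At 2 h 9 of the 56 were at least 1 higher with PA than with Glc and 35 lay within 0.5 of Glc, against 37 and 6 at 30 min. The 85 genes that were lower at 5 h had medians of 7.86, 7.60 and 6.08 with PA and 7.22, 6.62 and 6.49 with Glc. At 5 h 2 of them were at least 1 higher with PA than with Glc, against 34 at 2 h, and 1 was lower by this size. At 5 h 55 of the 85 lay within 0.5 of Glc, against 20 at 2 h. Many of the decreases with PA alone thus ended near the level with Glc. Since a choice by the step favours genes with an extreme earlier level with PA, some approach to Glc is built in. How much of it comes from this was not tested. The 46 genes that were higher at 5 h had medians of 6.37, 6.30 and 7.55 with PA and 6.74, 7.03 and 7.14 with Glc, so that PA minus Glc had a median of 0.53 at 5 h, against -0.62 at 2 h.

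A group of neighbouring identifiers on chromosome D had levels well above Glc at 30 min and lost most of them by 5 h. It was chosen after its values were seen. The highest signal there was that of ARAD1D17754g, with 13.55, 11.5 and 12.15 with PA, and 4.94, 5.15 and 5.78 with Glc. It was lower by -2.04 at 2 h (SD over 10 spots 0.40, 10 of 10 spots lower) and higher by 0.65 at 5 h. All 10 spots were above background on each PA array, and on the Glc arrays 0, 1 and 9 were.

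The identifiers on both sides of ARAD1D17754g had another course. Before it, ARAD1D17732g had 9.01, 8.56 and 5.57 with PA and 4.47, 4.57 and 4.67 with Glc. After it, ARAD1D17776g had 9.87, 9.15 and 6.68 with PA and 5.20, 5.25 and 5.22 with Glc, and ARAD1D17798g had 9.12, 8.23 and 5.33 with PA and 5.05, 4.97 and 4.98 with Glc. The steps of these 3 genes from 2 h to 5 h were -2.99, -2.47 and -2.90 with PA, and 0.10, -0.02 and 0.01 with Glc. Further out, ARAD1D17688g had 7.98, 7.5 and 5.33 with PA, ARAD1D17710g had 7.31, 6.79 and 4.99, and ARAD1D17820g had 7.11, 6.51 and 5.30. ARAD1D17666g had 8.19, 6.97 and 5.23 with PA, and 6.09, 5.71 and 5.33 with Glc. These 7 neighbours were each lower by at least 1 at 5 h than at 2 h with PA, while their steps with Glc were smaller than 0.5 in either direction. With Glc, ARAD1D17688g had 0 of 12 spots above background at each time, and ARAD1D17732g at most 1 of 11. ARAD1D17798g had 2 of 11 at each time, and ARAD1D17820g at most 3 of 10. For these genes a decrease with Glc was thus not detectable. At 5 h with PA, 5, 5, 5 and 2 of their spots were above background, in the same order. ARAD1D17754g, between the 7 neighbours, was higher at 5 h than at 2 h with PA. In the fit over both media, which tests only what the media share, 0 of these 8 genes passed the Benjamini-Hochberg adjustment at either step, for example ARAD1D17798g with -1.45 at the second (standard error 0.84, adjusted p = 0.565 from limma).

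**Figure D4:**
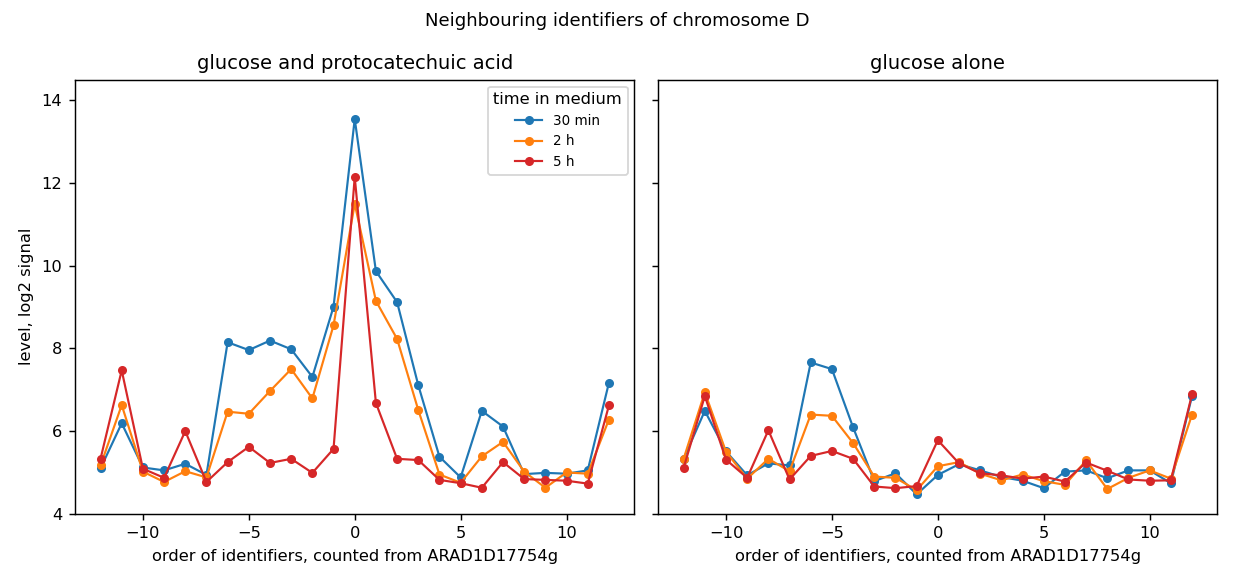
Levels (log2 signal, y axis) of neighbouring identifiers of chromosome D by their order from ARAD1D17754g (x axis) at 30 min (blue), 2 h (orange) and 5 h (red), with protocatechuic acid (left) and with glucose alone (right). With protocatechuic acid the neighbours from -4 to 3 are lower at 5 h than at 2 h, apart from ARAD1D17754g at 0, which has 12.15.

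Of the 87 counted identifiers numbered 17000 to 19000 on chromosome D, 2 were higher and 7 lower at the first step with PA, and 1 was higher and 9 lower at the second. With Glc the counts were 3 higher and 4 lower, then 3 and 2. The 9 lower genes are 10.3% of this range, where 3.55% of all counted genes were lower. They include the 7 neighbours described above, which were chosen after their values were seen, so this share is no separate result. Over all chromosomes, runs of at least 3 consecutive identifiers that were lower by 1 held 19 genes in 6 runs at the first step with PA and 23 genes in 7 runs at the second. The 23 genes include the same 7 neighbours. With Glc there were 9 genes in 3 runs and 15 genes in 4 runs. Runs of higher genes were 1 run of 4 genes, then 0, with PA, and 3 runs of 10 genes, then 7 runs of 22 genes, with Glc.

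The only run of higher genes with PA was ARAD1D25080g to ARAD1D25146g, chosen after its values were seen, and the same 4 identifiers were lower again at 5 h. ARAD1D25146g had 5.80, 9.68 and 7.77 with PA and 6.04, 8.01 and 7.61 with Glc. ARAD1D25124g had 5.85, 8.55 and 6.56 with PA and 5.90, 7.19 and 6.45 with Glc. ARAD1D25102g had 9.28, 10.60 and 8.66 with PA and 8.83, 9.4 and 8.28 with Glc, and ARAD1D25080g had 7.41, 8.67 and 7.64 against 7.52, 7.68 and 7.05. Among 30 min, 2 h and 5 h, all 4 were highest at 2 h in both media. At 15 min with Glc, ARAD1D25102g had 10.39 and ARAD1D25080g had 8.05, both above their levels at 2 h. The others were lower at 15 min than at 2 h with Glc.

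The genes of the upper tannin pathway were taken first under the identifiers that the paper gives. Of the 7 genes with probes, 0 were past 1 at the first step with PA and 1 (14.3%) was lower by at least 1 at the second, where 3.55% of all counted genes were lower. With the processed signal, 2 of them passed 1 at the first step, ARAD1A15158g with 2.30 and ARAD1A19822g with -1.08. Their median steps were -0.06 and -0.01, against -0.02 and 0.02 over all counted genes. AGDC1, the gallic acid decarboxylase gene, has no probe under its identifier. ACDO1 (ARAD1D18458g) and the 4-hydroxy-2-oxovalerate aldolase gene (ARAD1D18348g) are counted here as numbered. Under identifiers 660 lower, described below, their second steps with PA would be -2.9 and -2.17, both past 1. As numbered, the gene past 1 at the second step was ARAD1C00330g. It is annotated as a 2-oxopent-4-enoate hydratase, which adds water to an open-chain product of ring cleavage. The paper also lists it among its hydroxylase candidates. Its levels were 7.22, 7.16 and 5.69 with PA, and 4.69, 4.88 and 4.72 with Glc, where none of its 12 spots was above background. The step was -0.06 at first (SD over 12 spots 0.30), and -1.47 (SD 0.50) from 2 h to 5 h, when 12 of 12 spots were lower. Its level with PA exceeded that with Glc by at least 2.52, 2.28 and 0.97 at the 3 times.

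The second gene with this annotation, ARAD1A09218g, had 9.04, 9.18 and 8.61 with PA against 6.24, 6.88 and 6.85 with Glc. It was lower by -0.57 at 5 h than at 2 h with PA, with 10 of 11 spots lower, and remained 1.75 above Glc. By the mean over its spots the first step was -0.09, where the median gave 0.13. ARAD1A15158g, the oxalocrotonate decarboxylase gene, whose product acts one reaction before the hydratase, had 4.94, 5.48 and 5.33 with PA. At 30 min 1 of its 11 spots was above background, at 2 h 9 and at 5 h 5. With Glc it had 4.82, 4.82 and 4.95. The tannase genes ATAN1 (ARAD1A06094g) and ATAN2 (ARAD1A19822g) were close to background, with 5.12, 5.13 and 5.16 for ATAN1 and 4.96, 4.71 and 4.72 for ATAN2 with PA. At most 4 of 12 and 2 of 10 of their spots were above background, so that a change was not detectable at this signal. After Benjamini-Hochberg adjustment in the limma fit, p was between 0.583 and 0.952 for these 5 genes at the first step and between 0.469 and 0.997 at the second. The paper reports both tannase genes and the decarboxylase gene as upregulated by protocatechuic acid, which compares the media and not the times.

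**Figure D5:**
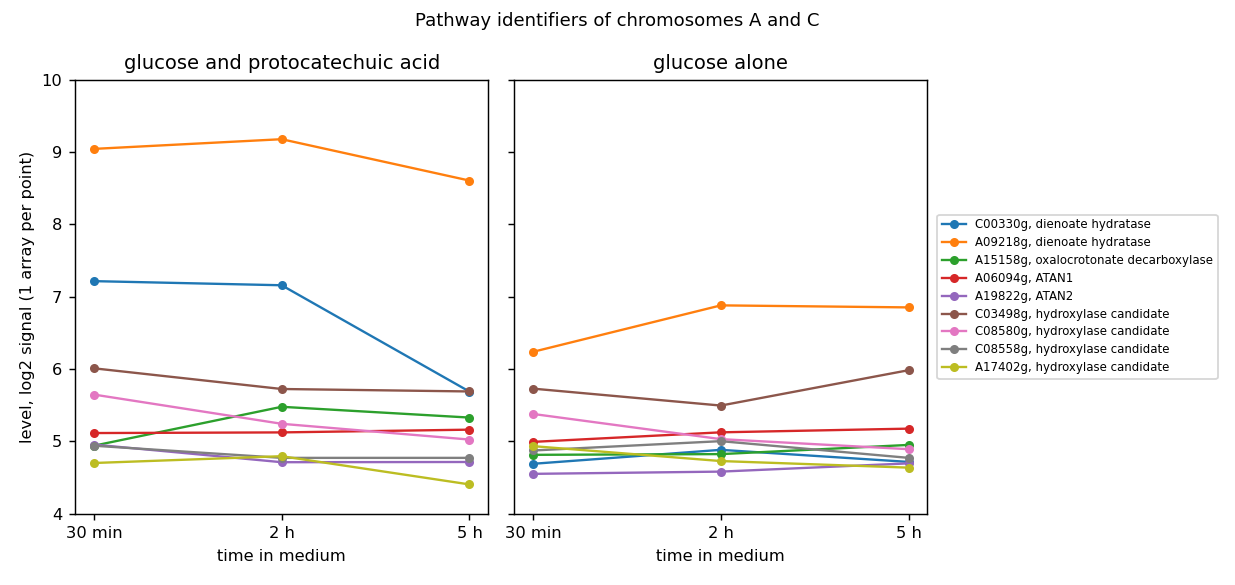
Levels (log2 signal, y axis) of the pathway genes and hydroxylase candidates of chromosomes A and C at 30 min, 2 h and 5 h with protocatechuic acid (left) and with glucose alone (right), 1 array per point. With protocatechuic acid, ARAD1C00330g is level until 2 h (7.22 and 7.16) and lower at 5 h (5.69).

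For genes of chromosome D other than ACDO1 it is open whether the probes under an identifier measure the gene that the paper gives this identifier. Under the identifier of ACDO1 (ARAD1D18458g), the catechol-1,2-dioxygenase gene, 7 of 10 probes end beyond the coding length, the last at 166.9% of it. With the number in a probe name read as its first base, these 7 probes do not lie within the ACDO1 coding sequence. Under the identifier 660 lower, ARAD1D17798g, the last of 10 probes ends at 99.6%. The lower reading was chosen after values were seen. For the phenol hydroxylase gene ARAD1D18502g the last probe ends at 23.3% as numbered and at 94.2% under the lower number, while for ARAD1D18392g these values are 92.5% and 89.3%. For ARAD1D27984g they are 39.1% and 63.8%. For 5 genes of the chromosomes A and C, the end of the last probe falls at 95.1% to 100% of the coding sequence as numbered.

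Under its own number, ACDO1 had 5.24, 5.16 and 5.14 with PA and 5.20, 5.00 and 5.24 with Glc, with at most 5 of 11 spots above background on the PA arrays. Under the number 660 lower it would have the values of ARAD1D17798g given above, 9.12, 8.23 and 5.33. ARAD1D18348g, the number of the 4-hydroxy-2-oxovalerate aldolase gene, had 6.57, 6.44 and 7.01 with PA and 7.04, 6.5 and 6.82 with Glc. ARAD1D17688g, 660 lower, is one of the neighbours that were lower at 5 h. The 2 readings thus give different courses for both genes, a flat or slightly higher level at 5 h in one and a lower level in the other. The second steps under the lower numbers were -2.90 for ACDO1 and -2.17 for the aldolase gene. For both genes, the paper reports a significant upregulation with protocatechuic acid in its array data. By quantitative PCR it also reports induction of ACDO1, in another strain with protocatechuic acid as the only carbon source.

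The hydroxylase candidates apart from ARAD1C00330g were the rest of the paper's list and ARAD1A17402g, which came from a sequence search. Of these 6 genes as numbered, 0 were higher by 1 at either step with PA (4.41% and 2.39% of all counted genes), 1 was lower at the first step (3.56%) and 0 at the second (3.55%). The one that was lower was ARAD1D18392g, with 7.49, 6.17 and 6.48 with PA and 7.39, 6.37 and 6.17 with Glc. Its step was -1.32 with PA (SD over 11 spots 0.32) and -1.02 with Glc, with 11 of 11 spots lower in both (Benjamini-Hochberg adjusted p = 0.0686 from limma). With the median of the spike-ins set to 0 its step with PA was -0.98. ARAD1D27984g, designated a salicylate hydroxylase, had 7.47, 8.33 and 7.80 with PA and 7.87, 7.99 and 7.56 with Glc. Its step of 0.86 with PA stood in 8 of 8 spots, and it was 0.12 with Glc. With 1 median per array this step was 1.09, and with the median of the spike-ins set to 0 it was 1.2, both past 1. Under the numbers 660 lower, ARAD1D18392g would have the values of ARAD1D17732g, with a second step of -2.99, and ARAD1D27984g those of ARAD1D27324g, with 7.33, 6.04 and 5.48 and a first step of -1.29. ARAD1C03498g had 6.01, 5.73 and 5.69 with PA and 5.73, 5.50 and 5.98 with Glc. ARAD1C08580g has only 3 spots, of which 2, 2 and 0 were above background at 30 min, 2 h and 5 h with PA. Its levels were 5.65, 5.24 and 5.03 with PA, and 5.38, 5.03 and 4.89 with Glc. Of the 11 spots of ARAD1C08558g 2 were above background at each of these times with PA, and of the 11 spots of ARAD1A17402g 0 were.

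In the catechol branch, ARAD1D18502g, the phenol hydroxylase gene, had 9.42, 9.16 and 9.63 with PA and 9.45, 9.29 and 9.19 with Glc. ARAD1D18480g, annotated as a 3-oxoadipate enol-lactone hydrolase, which acts late in the breakdown of catechol, had 10.82, 10.39 and 10.94 with PA and 10.87, 10.44 and 10.42 with Glc. At 5 h both were higher than at 2 h with PA by 0.47 and 0.56, in 7 of 7 and 11 of 11 spots, while with Glc the steps were -0.10 and -0.03. With the median of the spike-ins set to 0, the steps with PA were 0.21 and 0.30. ARAD1D09306g, with the same annotation, had 5.33, 5.01 and 4.93 with PA, with at most 4 of 10 spots above background. As numbered, none of the 3 genes passed 1 at either step. Under the numbers 660 lower, ARAD1D18480g would have the values of ARAD1D17820g, with -1.22 at the second step. ARAD1D18502g would have those of ARAD1D17842g, with 5.38, 4.95 and 4.82, and ARAD1D09306g those of ARAD1D08646g, with 6.15, 6.87 and 5.97.

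Genes that had differed between the media at 15 min were followed into the later course. These were chosen on arrays that are not part of it. For the 376 genes that were at least 1 higher with PA at 15 min, PA minus Glc had a median of 1.51 at 15 min, and medians of -0.03, 0.01 and 0.00 at the 3 later times. At the later times 21, 24 and 10 of them were still at least 1 higher with PA. For the 127 genes that were at least 1 lower, the medians were -1.24, 0.01, -0.03 and -0.26, and 5, 7 and 12 were still at least 1 lower. A selection on 1 pair of arrays favours extreme values of that pair, and how much of the return comes from this was not tested. In the later course with PA, 36 of the 376 genes were higher by 1 and 7 lower at the first step (9.6% and 1.9%, against 4.41% and 3.56% of all counted genes). With Glc 23 were higher and 5 lower (6.1% and 1.3%, against 2.95% and 3.03%). In the second step 10 were higher and 19 lower with PA (2.7% and 5.1%, against 2.39% and 3.55%). With Glc 19 and 3 were (5.1% and 0.8%, against 3.53% and 2.53%). Of the 127 genes, 5 were higher and 19 lower at the first step with PA (3.9% and 15.0%), and 6 and 18 with Glc (4.7% and 14.2%). From 2 h to 5 h 8 were higher and 16 lower with PA (6.3% and 12.6%), and 17 and 11 with Glc (13.4% and 8.7%). The same shares of all counted genes apply to the 127 genes.

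The 32 counted mitochondrial identifiers, of 36 on the array, had a median step of -0.36 with PA at the first step and 0.19 at the second, and 0 were past 1 at either. With Glc the medians were 0.02 and -0.23. The spike-ins moved by -0.34 and 0.26 with PA, and their part in these medians was not tested. Relative to the spike-ins, the median of the second step with PA changes sign. Genes of chromosome C were lower at the first step with PA in 2.2% and those of chromosome D in 4.7%, and at the second step the share of lower genes was between 2.8% (chromosome A) and 4.0% (chromosome D).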

How the data were processed

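Cells were measured on 8 single-dye (Cy3) arrays, 1 for each medium and time. Per the file headers, each scanner file gives intensities (median signal, local background and processed signal of a spot) read with Agilent Feature Extraction 11.5.1.1 before normalization between arrays. The deposited table holds log2 values that the authors corrected by normexp and quantile normalized with limma. Recomputing these steps with an offset of 16 gave values within 5e-09 of that table, so its scale is known.

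Groups were taken from the sample titles. Gene levels are medians of the deposited log2 values over spots of ControlType 0. The limma fit (version 3.58.1, R 4.3.3) had medium and time as factors. On simulated data of 6036 genes for 2 h minus 30 min, 200 of them changed, it called 0% of the genes with a log2 size of 1 and 42% of those with a size of 2 after Bonferroni adjustment, and 69% and 96% after Benjamini-Hochberg adjustment, with 0 and 16 unchanged genes. Tables and figures were made with Python 3.11.15 and matplotlib 3.10.9.

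Named genes are those the paper lists by role and the largest increase and decrease per step among genes with at least 3 spots above background on the brighter array. A fold change is given as a bound ("at least") where no spot was well above background on one array. Probe names end in a number, which was taken as the first base of the probe, with a length of 60 bases. The members and gene lists were chosen with earlier results of these data known. No reference annotation was used here, and 0 columns were left unmapped.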

Additional observations from a re-analysis of the deposited data

Results flagged for a closer look

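At the second step, 5 h minus 2 h, 4 genes were past a log2 difference of 1 in opposite directions in the media, named after their values were seen. Of these, 1 gene was higher with PA and lower with Glc. ARAD1A17512g, with 2 spots, had 8.00, 7.88 and 9.16 at 30 min, 2 h and 5 h with PA, and 9.13, 9.25 and 7.82 with Glc. The steps were 1.28 with PA and -1.43 with Glc.

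The other 3 genes were lower with PA and higher with Glc. ARAD1B15466g (12 spots) had 8.19, 7.24 and 6.06 with PA and 7.96, 6.74 and 7.95 with Glc. ARAD1B01386g (11 spots) had steps of -1.06 with PA and 1.06 with Glc, and ARAD1C37532g (11 spots) had -1.02 and 1.02. With 1 array per medium and time, the difference was not tested.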

How the results depend on the processing

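The counts of genes past 1 with PA moved by over 1.5 times with the background offset, the processed signal, the spike-in scaling and the size. For 2 h minus 30 min, the counts of 266 higher and 215 lower genes became 413 and 343 with no offset (0), 165 and 132 with an offset of 50, 688 and 588 for the processed signal minus the 75th percentile, 516 and 116 with the spike-in median set to 0, and 32 and 31 past a log2 difference of 2. For 5 h minus 2 h, the counts of 144 and 214 became 243 and 327, 73 and 116, 440 and 650, 66 and 376, and 12 and 24 in the same order. The other planned settings and the removal of spots marked as outliers, which was added after seeing the data, stayed within 1.5 times.

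In the limma fit, the Bonferroni counts of 3 and 1 became 169 and 72 with Benjamini-Hochberg adjustment and 1 and 0 without the arrays at 15 min. For 5 h minus 2 h the count was 0 for the processed signal, no offset, 1 median per array, the mean over spots, probes averaged first and a trend and robust estimation, and the Benjamini-Hochberg count was between 15 and 73 under the settings other than leaving out an array. With 1 array left out in turn, the Bonferroni counts were 0 to 1 at the first step and 0 to 0 at the second, with 2 residual degrees of freedom; in fits without an array at 30 min, 2 h or 5 h, 0 genes passed the Benjamini-Hochberg adjustment, and at least 461 had an unadjusted p under 0.05. No paired analysis was possible because the labels give no replicate numbers; the fit itself matches the media by time. For the named genes, 412 of 502 steps under alternatives moved by less than the spread over spots, 90 moved more and 0 reversed a step past 1. Of the 90, 29 came with the processed signal and 26 with the spike-in scaling.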
